A study of Mus musculus with 12 samples.

Results

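The small subunit processome is the large particle that builds on the nascent precursor of ribosomal RNA in the nucleolus and makes the precursor of the small ribosomal subunit. A list of 38 mouse genes for its proteins was examined in whole retina of diabetic and control mice, and 37 of them were measured among 24570 named genes. The line of Nhp2l1 (also Snu13), a U3 snoRNP protein, was not analysed here. The list was chosen by measured values: it was drawn up after Utp20, Wdr3, Wdr43 and Nol11 had passed the test between diabetic and control retinas in these arrays, and the other 33 measured genes entered as members of the same particle. The comparison of diabetic with control retinas therefore describes the 37 genes and tests none of them, and counts and medians are given with and without those 4.

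The study hybridised whole retinas of male C57Bl6/J mice to Affymetrix arrays, 1 array per animal, for 6 mice made diabetic with streptozotocin, a toxin of pancreatic beta cells, and 6 age-matched normoglycemic controls that received none. Per the labels, mice of 24 to 26 g received an intraperitoneal dose of 160 mg/kg streptozotocin when 8 weeks old, and a blood glucose over 15 mM was required 7 days later. Sample descriptions place the diabetic retinas 6 weeks after induction, whereas the series text gives 6 weeks as an age, younger than the age at injection. No genetic change is named in either group, and treatment of controls with the vehicle is not stated. All diabetic mice and no control received streptozotocin, so effects of the toxin itself and of high glucose cannot be told apart. The label numbers of the animals did not overlap between the groups, and if they mark cohorts, cohort and diabetes cannot be told apart.

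As background, RNA polymerase I transcribes the ribosomal DNA into a long precursor, and the processome forms on its leading end. The UTP-A complex binds first, UTP-B and the U3 small nucleolar ribonucleoprotein (U3 snoRNP) follow, and U3 RNA pairs with the precursor and guides its folding and cleavage. GTPases, helicases, endonucleases and modifying enzymes then complete and dismantle the particle. Photoreceptors renew their outer segments every day, which takes a high rate of protein synthesis. The retina of an adult mouse holds mostly cells that no longer divide, in which ribosomes are still made and turned over.

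The data are log2 RMA values, and a difference of 1 on this scale is a change of 1 doubling. Sorted values were identical on all 12 arrays, around a median of 5.73 and between 5.07 and 14.10, so a change shared by most genes would not be visible. Markers of the labelled tissue were high: the mean over 8 rod markers was 12.65 in controls and that over 6 Mueller glia markers 10.43, whereas 6 microglial markers averaged 5.70, 4 red cell markers 5.37 and 6 markers of dividing cells 5.53. The 6 lens markers, which a dissected retina should hold at a low level, averaged 6.12 to 7.22 on control arrays and 5.94 to 8.62 on diabetic arrays. Their summed level ran from 36.71 to 43.35 in controls and from 35.64 to 51.71 in diabetic retinas. The highest arrays were diabetic 6 (8.62) and diabetic 2 (7.88). All 6 lens markers had a difference above 0, and none passed the fit in limma. For 1 of them every diabetic array lay above every control, against 1.22% of all genes. Nearest to the threshold was Lim2 (5.37 ± 0.01 to 5.46 ± 0.06, SD; limma adjusted p = 0.0746). The 6 markers of pigment epithelium also varied, with means of 7.22 to 8.06 on control arrays and 7.19 to 8.68 on diabetic arrays. Of these markers, 3 had a difference above 0 and 3 below, and none passed the fit. Among 6 cone markers, 5 had a difference below 0, and Arr3, cone arrestin, fell by 0.30 (11.41 ± 0.11 to 11.11 ± 0.13, SD; limma adjusted p = 0.0348). The 6 markers of dividing cells had 2 differences above 0 and 4 below, with a median of -0.02. Of them only Mcm2 was called, with a fall of 0.10 (limma adjusted p = 0.0462). The part of these cell types in the members' values was not tested. In whole retina, fewer cells of a type and less RNA per cell cannot be told apart.

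Promoter sequence is shown for the 4 genes that led to the list, since their start regions can be read beside their values. RefSeq promoters of build GRCm38.p6, from 250 bases before to 50 bases after the start of transcription, were found for 31 of the 37 measured members. They had no entry for Tbl3, Wdr36, Utp6, Nol6, Fbl and Dcaf13. The windows below are 30 bases long, run 5′ to 3′ on the strand of the gene, and carry in capitals the E-box CACGTG, the palindrome bound by Myc, Max and related proteins, or, for Wdr3, the ETS motif CCGGAAGT.
Utp20: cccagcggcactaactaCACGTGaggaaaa
Wdr43: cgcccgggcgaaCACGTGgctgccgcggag
Nol11: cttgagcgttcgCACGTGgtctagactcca
Wdr3: ttccaatcggaCCGGAAGTggcgggtctcg
The Utp20 window lies at chr10:88826765-88826794 (minus strand), and its motif begins 37 bases after the start. The Wdr43 window lies at chr17:71616220-71616249 (plus strand), and its motif begins 17 bases after the start. The Nol11 window lies at chr11:107189407-107189436 (minus strand), and its motif begins 43 bases before the start. The Wdr3 window lies at chr3:100162382-100162411 (minus strand), and its motif begins 7 bases after the start.

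Of the 4, Nol11 alone held its E-box upstream of the start. Its 250 bases before the start, at chr11:107189382-107189631 (minus strand), are therefore shown whole, with the same 6 letters in capitals.
Nol11 upstream: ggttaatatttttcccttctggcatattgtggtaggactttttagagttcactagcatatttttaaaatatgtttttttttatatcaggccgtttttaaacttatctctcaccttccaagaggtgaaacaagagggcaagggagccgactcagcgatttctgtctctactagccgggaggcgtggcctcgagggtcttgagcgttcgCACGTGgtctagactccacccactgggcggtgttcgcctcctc
The E-box lies in the last 50 bases of the stretch, and the start of transcription follows its final base.

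The 6 letters CACGTG stood in 8 of the 31 member promoters (25.8%), against 7.15% of all 32851 RefSeq promoters of that length and 8.16% of the 19769 promoters of measured protein-coding genes. Besides Utp20, Wdr43 and Nol11, they were found in Cirh1a, Imp4, Rrp7a, Utp18 and Wdr46. Windows of these 5, added after their values were known, show that the letters on either side differ from gene to gene.
Cirh1a: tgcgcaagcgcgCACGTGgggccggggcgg
Imp4: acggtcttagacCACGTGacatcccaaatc
Rrp7a: gtgcctgtgcacCACGTGtcctggaactgg
Utp18: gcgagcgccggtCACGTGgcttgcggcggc
Wdr46: aagggagtttcgCACGTGgatcgttgttcg
The Cirh1a window lies at chr8:106893643-106893672 (plus strand), and its motif begins 15 bases after the start. The Imp4 window lies at chr1:34439696-34439725 (plus strand), and its motif begins 121 bases before the start. The Rrp7a window lies at chr15:83122992-83123021 (minus strand), and its motif begins 208 bases before the start. The Utp18 window lies at chr11:93885769-93885798 (minus strand), and its motif begins 20 bases before the start. The Wdr46 window lies at chr17:33940699-33940728 (plus strand), and its motif begins 12 bases before the start. The letters were present in members whose difference between the groups lay at either end of the list, from Imp4 (-0.12) to Rrp7a (0.33).

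The ETS letters CCGGAAGT, or their reverse complement ACTTCCGG, stood in 10 of the 31 promoters (32.3%), against 3.89% of all promoters and 5.40% of those of measured protein-coding genes. They were found in Bms1, Cirh1a, Dhx37, Emg1, Heatr1, Nol10, Pwp2, Utp3, Wdr3 and Wdr46, so that Wdr3 was the only 1 of the 4 with them. The window of Bms1, the member next below the 4 in order of p, is shown with them in capitals.
Bms1: acccagagcttACTTCCGGctttcccctga
It lies at chr6:118419508-118419537 (minus strand), and its motif begins 109 bases before the start. A YY1 core, AAGATGGC, was found in Imp4 only (3.23%, against 2.75% of all promoters). Both strands were searched, and no match overlapped a different motif, while in Wdr46 the ETS matches on opposite strands share letters. The median share of G and C was 58.7% over member promoters, 52.7% over all promoters and 57.3% over those of measured protein-coding genes. A match is a description of letters near the start and not evidence of a bound factor.

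The processome genes differed by small amounts between diabetic and control retinas. The difference, diabetic minus control, was above 0 for 26 of the 37 members and below 0 for 11, around a median of 0.09 on the log2 scale and between -0.12 and 0.33. Without the 4, it was above 0 for 22 of 33 and below 0 for 11, with a median of 0.07 over the same range. Over all 24570 genes, 48.1% lay above 0 and the median was -0.00, and among the brighter genes, those at or above the median level, 50.01% lay above 0. As ratios, the members lay between 0.918 for Imp4 and 1.26 for Rrp7a.

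By limma with Benjamini-Hochberg adjustment over all named genes, 1.47% of genes were called higher and 1.77% lower at an adjusted p under 0.05. Among the members, 4 were called higher and 0 lower, and the 4 are those that led to the list. Of the other 33, limma called 0 in either direction. At an unadjusted p under 0.05, 9 of the 33 lay higher (Pwp2, Nop58, Utp3, Bms1, Nop14, Noc4l, Dcaf13, Pdcd11 and Nat10) and 1 lower (Utp14a), against 9.76% and 11.3% of all genes. With the 4 included, these counts were 13 and 1. All 6 diabetic arrays lay above all 6 control arrays for Utp20, Wdr3 and Wdr43 and for 0 of the other 33, against 1.22% of all genes. Since this contrast chose the list, the counts describe the members and nothing is read from them. Just inside the threshold stood Nol11 (adjusted p = 0.0480, limma) and just outside it Bms1 (adjusted p = 0.0642, limma).

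**Figure D1:**
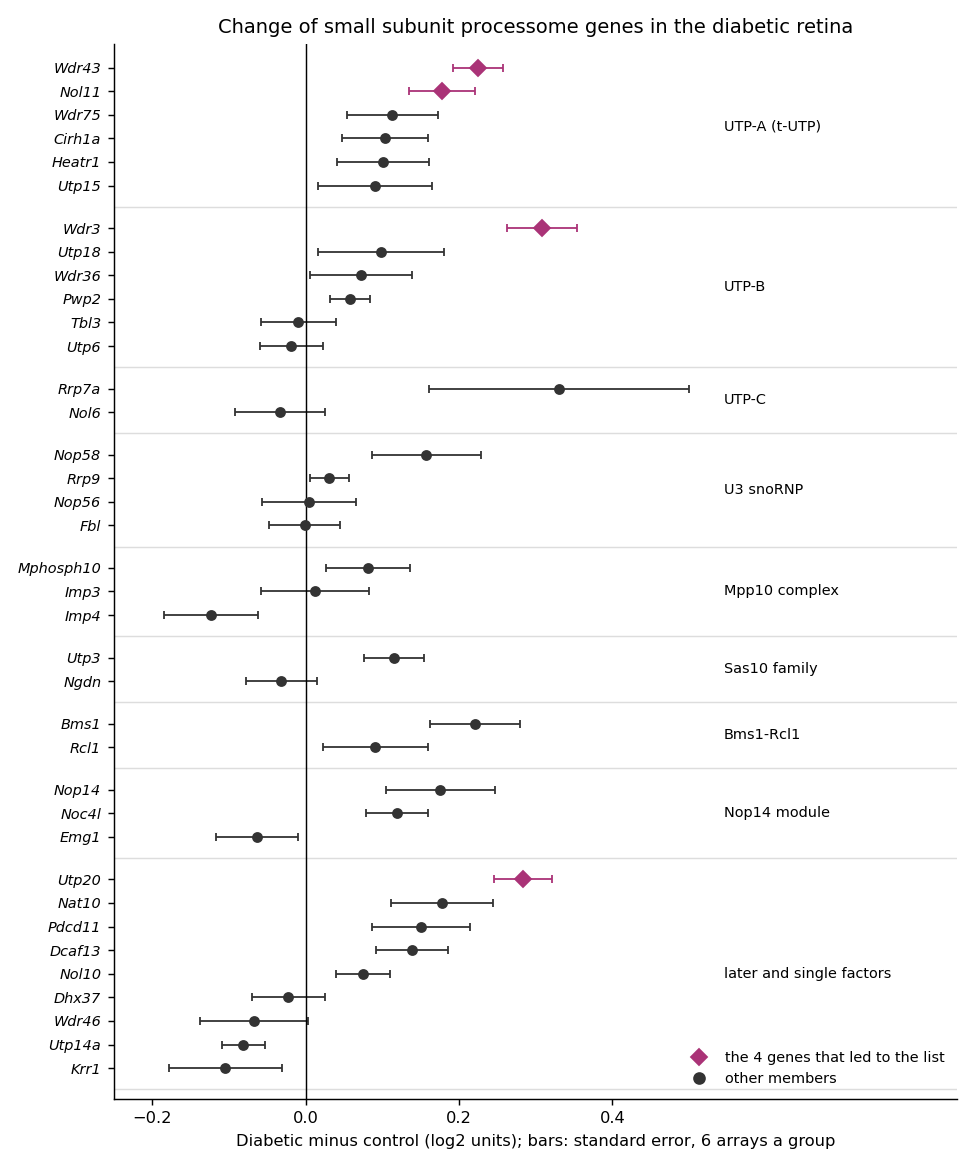
Difference between diabetic and control retinas on the log2 scale for the 37 measured members, grouped by subcomplex. Points are group mean differences and bars are standard errors from limma with 6 arrays a group, diamonds mark the 4 genes that led to the list. All 6 UTP-A genes lie to the right of 0, while the Mpp10 complex runs from -0.12 to 0.08.

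UTP-A, also called t-UTP for its link to transcription of the ribosomal DNA, had a difference above 0 in all 6 of its genes, with a median of 0.11, and in all 4 of 4 without Wdr43 and Nol11, with a median of 0.10. Wdr43 (Entrez gene 72515), the mammalian Utp5, ran from 9.12 to 9.28 in controls with a median of 9.18, and from 9.36 to 9.53 in diabetic retinas with a median of 9.39. Every diabetic array lay above every control array, and diabetic 6 stood above the other diabetic arrays. The difference was 0.22 ± 0.03 (SE, n = 6 per group; all errors of differences below are of this kind), or 1.17-fold. Nol11 (Entrez gene 68979), a metazoan subunit that binds the Utp4 protein, ran from 9.22 to 9.45 in controls with a median of 9.27, and from 9.39 to 9.56 in diabetic retinas with a median of 9.48. One control array, control 6, reached into the diabetic range, and 4 diabetic arrays lay above all controls. The difference was 0.18 ± 0.04, or 1.13-fold.

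The other 4 UTP-A genes differed by similar small amounts. Heatr1, the Utp10 protein needed for transcription and processing of the precursor, had a difference of 0.10 ± 0.06, and Cirh1a (also Utp4), whose human counterpart is mutated in a childhood cirrhosis, had 0.10 ± 0.06. In both genes, diabetic 2 was the highest array, at 7.72 for Heatr1 against a control maximum of 7.42 and at 9.27 for Cirh1a against 8.95. Without that array the differences were 0.05 for each. Wdr75, the mammalian Utp17, had a difference of 0.11 ± 0.06, with all 6 diabetic arrays above the control mean and 1 above all controls, and 0.07 without control 5. Utp15 had 0.09 ± 0.08, and its lowest array was control 2, at 7.09, without which the difference was 0.04. It was 0.05 without diabetic 3. UTP-A medians by array ran from -0.06 to 0.10 among controls and from 0.03 to 0.20 among diabetic retinas, so that the groups overlapped.

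UTP-B, a scaffold mostly of WD-repeat proteins that bridges the precursor and the U3 snoRNP, had a difference above 0 in 4 of 6 genes. The median was 0.07, or 0.06 with 3 of 5 above 0 without Wdr3. Wdr3 (Entrez gene 269470), the mammalian Utp12, ran from 7.04 to 7.23 in controls with a median of 7.13, and from 7.34 to 7.57 in diabetic retinas with a median of 7.44. The groups were parted, with diabetic 1 and diabetic 4 highest and control 5 lowest. The difference was 0.31 ± 0.05, or 1.24-fold. Among the 37 members only Rrp7a had a wider difference, with an SE of 0.17.

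The other 5 UTP-B genes had differences from -0.02 to 0.10. Utp18 had a difference of 0.10 ± 0.08, which rested on diabetic 2, at 8.10 against a control maximum of 7.72, and was 0.02 without that array. Wdr36, the mammalian Utp21 and a gene studied in glaucoma, had 0.07 ± 0.07, and from 0.03 without control 6 to 0.11 without diabetic 3. Pwp2, the mammalian Utp1, had 0.06 ± 0.03 with 4 diabetic arrays above all controls, and its SD among controls (0.02) was the lowest of the members. Tbl3, the mammalian Utp13, differed by -0.01 ± 0.05 and Utp6 by -0.02 ± 0.04, and only diabetic 2 lay above all controls in either. Across the complex, whose proteins sit together in the particle, mRNA differences thus ran from -0.02 to 0.31.

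UTP-C was represented by Rrp7a and Nol6. Rrp7a (Entrez gene 74778) ran from 5.97 to 6.56 in controls with a median of 6.36, and from 6.26 to 7.18 in diabetic retinas with a median of 6.57. Diabetic 2 and diabetic 3 stood apart at 7.08 and 7.18, diabetic 6 lay above all controls too, and control 5 was the lowest of all 12 arrays. The difference of 0.33 ± 0.17 was the widest of the list and had its widest error. Its SDs of 0.23 in controls and 0.38 in diabetic retinas were the highest among members, whose median SDs were 0.09 and 0.10, against 0.05 and 0.05 over all genes. Nol6, the mammalian Utp22, differed by -0.03 ± 0.06.

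**Figure D2:**
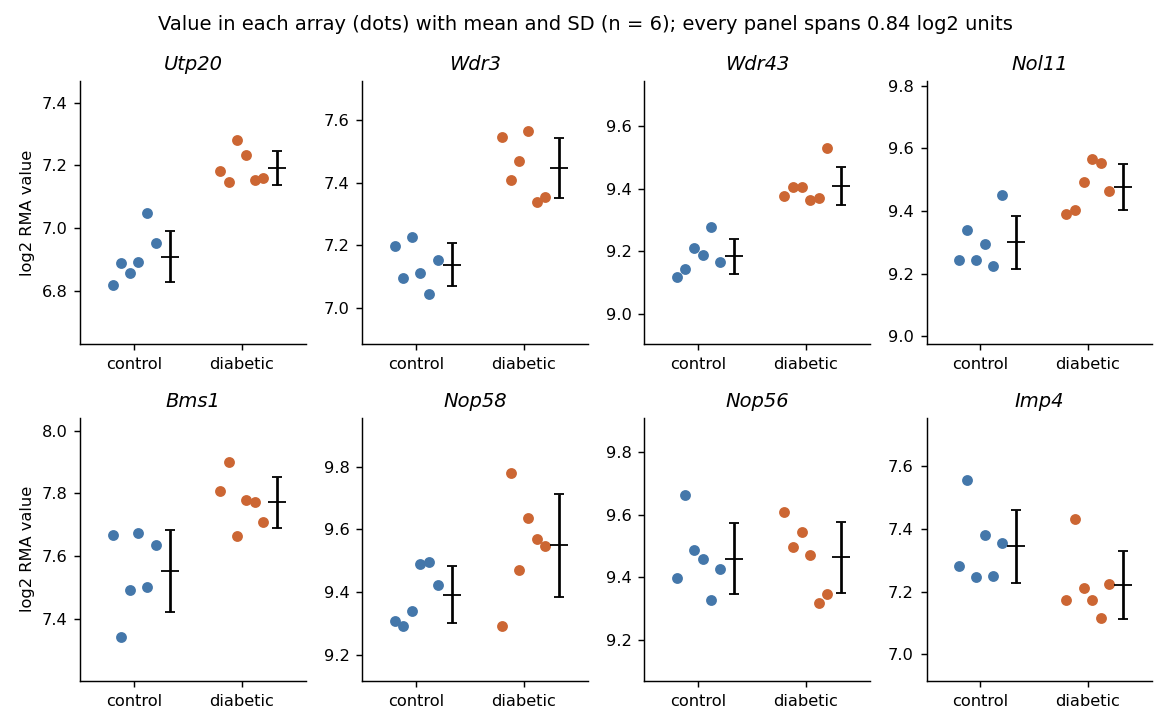
Log2 RMA value on each array, with mean and SD of 6 arrays a group, for the 4 genes that led to the list (top row) and for Bms1, Nop58, Nop56 and Imp4 (bottom row). Groups do not overlap for Utp20, Wdr3 and Wdr43, while in Imp4 5 diabetic arrays lie below all controls and diabetic 2 stands at 7.43.

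The U3 snoRNP is the box C/D particle of the processome, and 3 of its 4 measured proteins had a difference above 0, with a median of 0.02. Nop58 (Entrez gene 55989), a scaffold protein of the core, ran from 9.29 to 9.49 in controls with a median of 9.38, and from 9.29 to 9.78 in diabetic retinas with a median of 9.56. Diabetic 1 lay with the lowest controls and diabetic 2 highest, and 4 diabetic arrays exceeded all controls. The difference was 0.16 ± 0.07, and 0.11 without diabetic 2. Nop56 (Entrez gene 67134), the partner of Nop58 in the same scaffold, ran from 9.33 to 9.66 in controls with a median of 9.44, and from 9.32 to 9.61 in diabetic retinas with a median of 9.49. Its groups covered the same range, with a difference of 0.00 ± 0.06. Fbl, the methyltransferase fibrillarin, differed by -0.00 ± 0.05, and its mean was below the median of the arrays, as was that of Noc4l alone among the other members. Rrp9, the U3-specific protein of the particle, differed by 0.03 ± 0.03. The U3 RNA itself was represented by 1 of 5 listed lines, Rnu3a, at 5.24 ± 0.04 on the 6 control arrays and 5.30 ± 0.04 (SD) on the 6 diabetic arrays, close to the bottom of the scale, and did not pass the fit (difference 0.06, limma adjusted p = 0.169).

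Box C/D RNAs are encoded in introns of several of these genes, and the table held lines for some of them. Their strand was not used here, since the gene table gives none. In Wdr43, Snord53 had a difference of 0.21 ± 0.08 (limma adjusted p = 0.183) and Snord92 of 0.08 ± 0.04 (limma adjusted p = 0.274), beside 0.22 ± 0.03 for the host. In Nop56, whose mRNA differed by 0.00, Snord110 had 0.00 ± 0.06 and Snord57 0.06 ± 0.04. In Nop58, Snord70 had -0.07 ± 0.14 and Snord11 -0.11 ± 0.09, beside 0.16 ± 0.07 for the host. None of the 6 snoRNA lines passed the fit. Among coding genes that overlap a member, Gdap2 beside Wdr3 differed by 0.02 ± 0.06, Serhl beside Rrp7a by -0.09 ± 0.06 and Caprin1 beside Nat10 by -0.08 ± 0.05. Spag17 beside Wdr3 differed by 0.00 ± 0.01, Idh3b beside Nop56 by 0.02 ± 0.03, Lpcat3 beside Emg1 by 0.02 ± 0.05 and Glipr1 beside Krr1 by 0.01 ± 0.02. The microRNA lines Mir101b, inside Rcl1, and Mir3066, inside Nol10, differed by 0.00 ± 0.01 and 0.04 ± 0.02.

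The Mpp10 complex, which brings U3 RNA and the precursor together, had 2 of 3 genes above 0 and a median of 0.01. Imp4 (Entrez gene 27993) ran from 7.25 to 7.55 in controls with a median of 7.32, and from 7.12 to 7.43 in diabetic retinas with a median of 7.19. All diabetic arrays but diabetic 2 lay below all controls, and diabetic 2 lay above 5 of the 6 controls. The difference was -0.12 ± 0.06, the lowest of the list. It was -0.17 without diabetic 2 and -0.08 without control 2, the highest control. Its partner Imp3 differed by 0.01 ± 0.07, and Mphosph10, the Mpp10 protein itself, by 0.08 ± 0.05. Diabetic 6 was its highest array at 6.21, and the difference was 0.04 without it. The Sas10 family, small proteins that bind other factors of the particle, was split between Utp3 (0.12 ± 0.04, all 6 diabetic arrays above the control mean) and Ngdn (-0.03 ± 0.05).

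Bms1 and Rcl1 enter together, Bms1 as a GTPase and Rcl1 as a cyclase-like protein tied to cleavage of the precursor, and both had a difference above 0. Bms1 (Entrez gene 213895) ran from 7.34 to 7.67 in controls with a median of 7.57, and from 7.66 to 7.90 in diabetic retinas with a median of 7.78. All diabetic arrays but diabetic 3 lay above all controls, and diabetic 3 lay just under the highest control. The difference was 0.22 ± 0.06, or 1.17-fold. Rcl1 differed by 0.09 ± 0.07, with diabetic 1 highest at 6.52 and the other diabetic arrays inside the control range. It was 0.04 without control 2 and 0.05 without diabetic 1.

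In the Nop14 module, 2 of 3 genes were above 0, with a median of 0.12. Nop14 (Entrez gene 75416), the protein that names the module, ran from 6.80 to 7.02 in controls with a median of 7.00, and from 6.98 to 7.42 in diabetic retinas with a median of 7.09. Diabetic 2 stood well above the rest, and 5 diabetic arrays exceeded all controls. The difference was 0.18 ± 0.07, and 0.12 without diabetic 2. Noc4l, the partner of Nop14, differed by 0.12 ± 0.04 with diabetic 1 highest. Emg1, a methyltransferase that modifies the small subunit RNA, differed by -0.06 ± 0.05, and by -0.03 without diabetic 4.

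The remaining 9 genes act late or singly, and 5 of them lay above 0 with a median of 0.07, or 4 of 8 with a median of 0.03 without Utp20. Utp20 (Entrez gene 70683), a very large helical repeat protein, ran from 6.82 to 7.05 in controls with a median of 6.89, and from 7.15 to 7.28 in diabetic retinas with a median of 7.17. Every diabetic array lay above every control, and control 5 came nearest. The difference was 0.28 ± 0.04, or 1.22-fold.

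Nat10 (Entrez gene 98956), an RNA acetyltransferase, ran from 7.80 to 8.08 in controls with a median of 7.99, and from 7.91 to 8.29 in diabetic retinas with a median of 8.16. Diabetic 6 lay among the controls and the other 5 above them. The difference was 0.18 ± 0.07. Pdcd11, the mammalian Rrp5 that serves both ribosomal subunits, had 0.15 ± 0.06 with diabetic 2 highest, and Dcaf13, the mammalian Sof1, had 0.14 ± 0.05 with all 6 diabetic arrays above the control mean. Nol10, the mammalian Enp2, had 0.07 ± 0.04.

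The 4 late or single factors below 0 included the pair that dismantles the particle. Utp14a (Entrez gene 72554), which activates the helicase Dhx37, ran from 6.06 to 6.24 in controls with a median of 6.14, and from 6.03 to 6.10 in diabetic retinas with a median of 6.07. All 6 diabetic arrays lay below the control mean, inside or just under the control range. The difference was -0.08 ± 0.03. Dhx37, the helicase that strips U3 RNA from the precursor, differed by -0.02 ± 0.05, and Wdr46, the mammalian Utp7, by -0.07 ± 0.07, with -0.13 when diabetic 2 was left out and -0.03 when diabetic 6 was. Krr1, a KH-domain protein, differed by -0.10 ± 0.07. With single arrays left out, the Krr1 difference ran from -0.17 without control 5, which at 9.15 was the lowest of the controls, to -0.07 without diabetic 3.

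**Figure D3:**
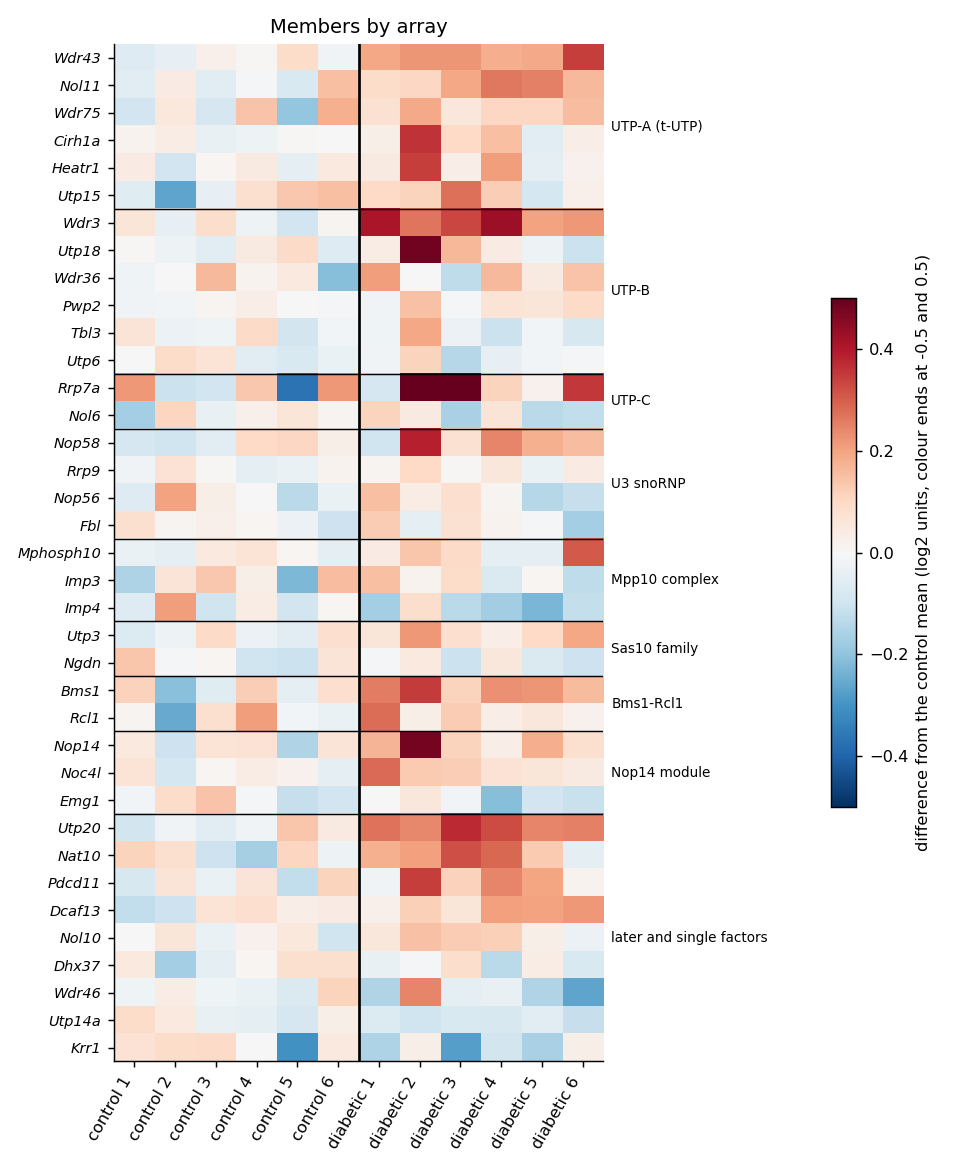
Difference of each array from the control mean of the same gene on the log2 scale, for the 37 members in rows and 12 arrays in columns. Of the 37 rows, 11 lie above 0 on all 6 diabetic arrays, those of Wdr43, Wdr3 and Utp20 among them. Of these 11, 7 are not among the 4 genes that led to the list. The column of diabetic 2 holds most of the darkest cells outside the rows of Wdr43, Wdr3 and Utp20.

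Arrays of the same group differed in the members' values. The median difference from the control mean over the 37 members ran from -0.05 to 0.02 on control arrays. On diabetic arrays it was 0.05, 0.14, 0.09, 0.06, 0.02 and 0.02 for diabetic 1 to 6. Over the 33 without the 4, it ran from -0.05 to 0.03 on control arrays, and diabetic 5 (-0.01) and diabetic 6 (0.02) lay inside that range.

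Diabetic 2 was the highest diabetic array for 18 of the 37 members, whereas it was the highest for 20.0% of all genes. Control 5 was the lowest control array for 15 of the 37, against 17.99% of all genes. Diabetic 2 also had the second highest lens mean (7.88), while diabetic 6, with the highest (8.62), was the lowest diabetic array for 9 members, a share near that over all genes (21.21%). Without diabetic 2, the median difference was 0.06 over the 37 members and 0.05 over the 33, and without diabetic 2 and diabetic 6 it was 0.06 and 0.05. The part of lens tissue in the members' values was not tested beyond these runs. Utp20, Wdr3 and Wdr43 were still called higher by limma without both arrays (differences 0.30, 0.34 and 0.20), and 0 of the other 33 were. Leaving out single arrays, these 3 were called in all 12 runs. Nol11 was called in 2 of 12 runs, those without control 6 and without diabetic 2. Utp20, Wdr3, Wdr43 and Nol11 led to the list because they had passed this comparison on these same arrays. Their calls on subsets of the arrays, and the contrast with the other 33, therefore describe these genes and test none of them. The number of members above 0 ran from 24 to 28 of 37 in the 12 runs that left out single arrays. Tbl3, Utp6, Fbl, Nop56 and Imp3, all close to 0, changed sign in some of those runs.

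**Figure D4:**
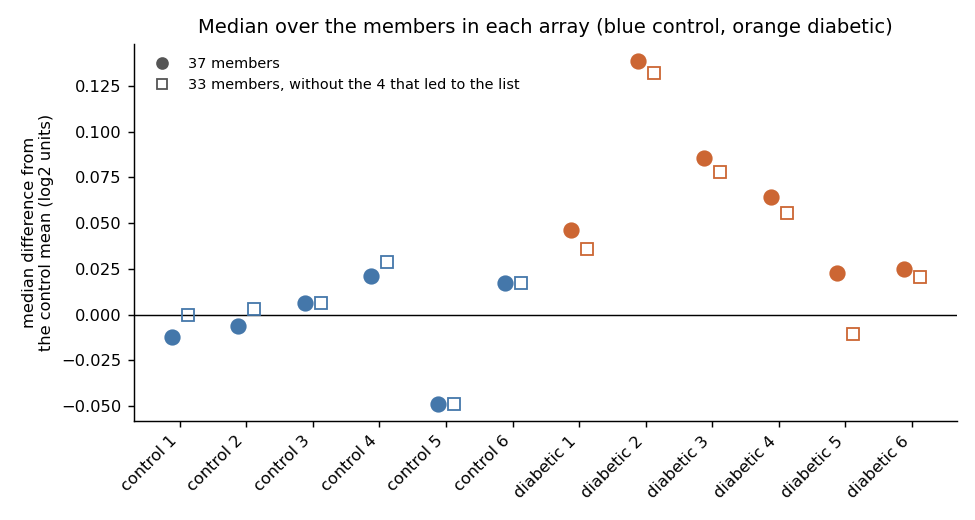
Median over the members of the difference from the control mean on each array, in log2 units, for the 37 members (filled circles) and the 33 without the 4 that led to the list (open squares). Diabetic 2 stands highest at 0.14 and 0.13, and the open square of diabetic 5 lies at -0.01.

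Other genes of ribosome production, taken from lists drawn up by function with earlier results of these data known, gave a frame for the members. Of 29 measured small subunit factors that are not on the member list, 19 lay above 0, with a median of 0.07. They include further Utp genes, Utp11l and Utp23, so not all lie outside the particle. Limma called 0 of the 29, while of all genes it called 1.47% higher and 1.77% lower. At an unadjusted p under 0.05, 8 of the 29 lay higher and 2 lower, against 9.76% and 11.3% of all genes. Of 55 large subunit factors, 37 lay above 0 with a median of 0.06, and 3 were called higher (11 higher and 2 lower unadjusted). Sdad1, which acts in export of the large subunit, averaged 6.65 ± 0.06 on the 6 control arrays and 6.94 ± 0.12 (SD) on the 6 diabetic arrays, with no overlap between groups. Its difference was 0.29 ± 0.05 (limma adjusted p = 0.0192) and it was called in all 12 runs that left out 1 array. Brix1 (0.13 ± 0.03, limma adjusted p = 0.0436) and Rsl1d1 (0.10 ± 0.02, limma adjusted p = 0.0465) also rose, but lost the call in 10 and 11 of those runs.

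RNA polymerase I and its factors had 11 of 16 genes above 0 and a median of 0.02 (2 higher and 1 lower unadjusted). Taf1b (0.27 ± 0.06, limma adjusted p = 0.0421) and Taf1d (0.19 ± 0.05, limma adjusted p = 0.0491), both subunits of the selectivity factor that brings the polymerase to the promoter, rose, and lost the call in 9 and 10 of 12 runs. The box H/ACA and snoRNP assembly list was mixed, with 5 of 13 above 0 and a median of -0.03 (3 higher and 5 lower unadjusted). In it Znhit6, an assembly factor of box C/D particles, rose (0.23 ± 0.05, limma adjusted p = 0.0436), and Naf1, an assembly factor of box H/ACA particles, fell (-0.22 ± 0.05, limma adjusted p = 0.0372). They lost the call in 9 and 10 of 12 runs. The RNA exosome, which trims the excised spacers, had 11 of 14 above 0, a median of 0.05, and limma called 0 (3 higher and 0 lower at an unadjusted p under 0.05). In the Myc family, 5 of 10 lay above 0 with a median of -0.00 (3 higher and 1 lower unadjusted). Mnt, a partner of Max that represses E-box genes, rose by 0.10 ± 0.02 (limma adjusted p = 0.0462) and lost the call in 11 of 12 runs.

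**Figure D5:**
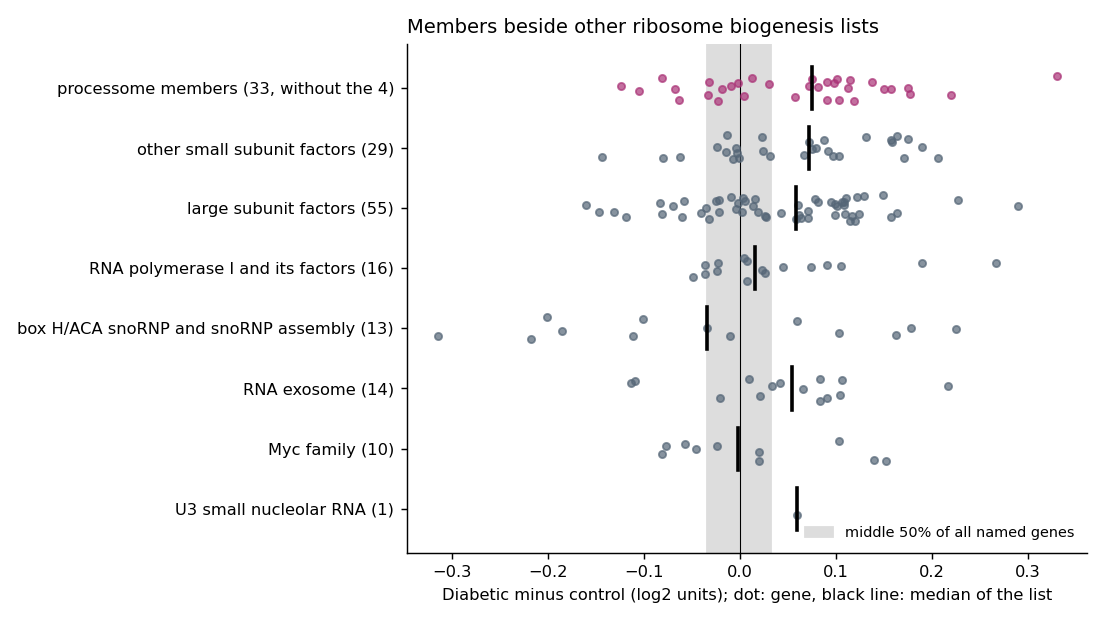
Difference between diabetic and control retinas on the log2 scale for each measured gene (dots) of the 33 members without the 4 and of 7 other lists of ribosome production, with the median of each list as a black line and the middle 50% of all named genes in grey. The medians of the members (0.07), the other small subunit factors (0.07) and the large subunit factors (0.06) lie right of the grey band. So does the U3 RNA list, which is 1 gene (0.06), and the exosome median is 0.05. The median of box H/ACA and assembly factors (-0.03) lies left of 0.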

How the data were processed

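Values were log2 values that the authors made with RMA (robust multi-array average) and deposited as 1 table, per the submitters' processing notes. RMA corrects background, puts all arrays on 1 distribution and summarizes probes. Its version, the array's name and the probe set definition are not given in the sources used here. Of 24973 lines, each an Entrez gene number, 24015 were named by the platform annotation and 559 by RefSeq, 399 had no name and were left out, and 4 repeats of a symbol were dropped, leaving 24570 genes.

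Differences (diabetic minus control) were fitted with limma 3.58.1 in R 4.3.3 (lmFit, eBayes) over all 24570 genes and 12 arrays, two-sided, with Benjamini-Hochberg adjustment and a threshold of 0.05. Arrays are separate animals per the labels, and their number limits the precision. The procedure was tested on simulated data. The members, the pathway lists and the promoter motifs were chosen with earlier results of these data known. Named are all members, measured small RNAs inside members, measured coding genes that overlap them, and up to 4 genes of each pathway list past the fit. Promoters were read for the 4 genes that led to the list, and further windows were added after values were seen. Alternatives covered the variance model, array weights, filters on dim genes (25th percentile and median), the replicate number as a block, a threshold of 0.10, trends of change on level and on gene span (lowess), and arrays left out singly and, for diabetic 2 and 6, together.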

Additional observations from a re-analysis of the deposited data

Results flagged for a closer look

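In 7 of the 90 groups of 6 arrays examined (7.78%), 1 array stood apart from the other 5, by a gap to its nearest neighbour, taken as a share of the range of the group, past Dixon's critical value. Chance gives about 1 in 20. Diabetic 2 was the array in 4 of the 7. It was high for Tbl3 (gap share 0.693; 6.42 against 6.12 to 6.21 on the other diabetic arrays), for Imp4 (0.654; 7.43 against 7.12 to 7.22), for Nop14 (0.670; 7.42 against 6.98 to 7.13) and for the large subunit factor Sdad1 (0.876; 7.20 against 6.87 to 6.91).

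Diabetic 6 was high for Wdr43 (gap share 0.741; 9.53 against 9.36 to 9.41), and diabetic 1 was high for Noc4l (0.631; 5.87 against 5.63 to 5.72). Among controls, control 5 was low for Krr1 (0.750; 9.15 against 9.45 to 9.55).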

How the results depend on the processing

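No called difference changed direction under the alternatives run. Among members not called, Tbl3 (-0.01; -0.05 to 0.01 with single arrays left out), Utp6 (-0.02; -0.04 to 0.01), Fbl (-0.00; -0.03 to 0.03), Nop56 (0.00; -0.02 to 0.05) and Imp3 (0.01; -0.03 to 0.04) did. Of the values for single members, 759 were counted as the same, 13 lost the call (all Nol11, at differences from 0.16 to 0.20) and 3 gained it (all Bms1). The same meant the same side of the threshold. After removing a trend, where no p was computed, it meant a shift smaller than the SD within groups. Of the values for counts and medians, 77 stayed within a tolerance and 14 moved past it. For counts the tolerance was a set ratio to the main count, so 546 called genes against 797 counted as stayed. For medians it was the SD between diabetic arrays (0.0438 for the 37 members, 0.0496 for the 33). A median of 0.06 against 0.09 thus counted as stayed. The fit called 797 genes, 506 with the replicate block, 379 without diabetic 2 and 6, 1967 at a threshold of 0.10, and from 325 to 835 with 1 array left out. Calls among the 37 members ran from 3 to 4 with 1 array left out and came to 5 at a threshold of 0.10 and under both filters on dim genes. Nol11 was also lost under the replicate block and under a trended robust variance. Among the 33 members without the 4, limma called 0 with any 1 array left out, and 1, Bms1, with genes at or above the 25th percentile, with genes at or above the median, or at a threshold of 0.10. The median difference of the 37 ran from 0.06 to 0.11 and that of the 33 from 0.05 to 0.08 with arrays left out; it was 0.09 and 0.08 after removing the trend on level, and 0.09 and 0.07 after that on gene span. Same-numbered arrays correlated from -0.16 to 0.17 in their deviations from the group means, and 1 control of 6 correlated best with its own number, so the numbers pair no arrays. The table gives no signal over background, so how far dim genes such as Fbl and Noc4l lie above it is unknown.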
